A study of Mus musculus with 12 samples.

Results

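The genes described here are 49 cell cycle and DNA replication genes, chosen by symbol from the 24346 gene symbols measured by RNA-seq in myeloid-derived suppressor cells (MDSCs). They comprise 2 general markers of proliferation, 8 cyclins and kinases of the G1 phase and its exit, 4 transcription factors, 17 genes of DNA replication (4 of nucleotide synthesis, 9 of origin licensing and 4 of the replication fork) and 18 genes of mitosis (7 cyclins or kinases, 5 of the spindle checkpoint and anaphase, and 6 of the kinetochore and spindle). All 49 symbols were found, and all 49 passed the filter on low values in every comparison. The question was how these genes stood in the monocytic (M-MDSC) and polymorphonuclear (PMN-MDSC) subsets, and how they differed with MS-275 (entinostat) and CXD101, both inhibitors of histone deacetylases 1 to 3.

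The cells were sorted by flow cytometry from tumors of wild-type mice. The study's methods describe the M-MDSC experiment: female C57BL/6J mice aged 6 to 8 weeks carried Hepa 1-6, a mouse hepatoma cell line, in the liver, received vehicle or 5 mg/kg of either inhibitor every day for 10 days, and gave tumors on day 21, from which CD11b+ Ly-6Chi Ly-6G- cells were sorted. The study's section on animals names female C57BL/6J mice aged 6 to 8 weeks for its experiments in general, without naming the PMN-MDSC libraries. Dose and schedule are not described for the PMN-MDSC libraries in the sources used here. These label them as sorted from tumors of wild-type mice treated with vehicle, MS-275 or CXD101. Each of the 6 groups (2 subsets by 3 treatments) held 2 libraries, named replicate 1 and 2, and values below are given in that order. The study calls its M-MDSC libraries biological replicates, but neither it nor the labels state whether the 2 libraries of a group came from separate mice, so p-values measure the spread between libraries, which may in part be technical.

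The cell cycle is driven by cyclins and the kinases they activate. D-type cyclins with Cdk4 or Cdk6, and E-type cyclins with Cdk2, release E2F transcription factors from the retinoblastoma protein, and E2F then turns on the genes of DNA replication. Mitotic genes are switched on later, in G2, by B-Myb (Mybl2), Foxm1 and the MuvB complex, often through a promoter element called the CHR. In the myeloid lineage, division is a property of progenitors and early precursors, and mature neutrophils do not divide.

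Expression was deposited as FPKM, fragment numbers scaled for transcript length and library size, and was tested as log2(FPKM + 1) with limma. Differences below are on that log2 scale, which understates the change of low genes. A gene was called higher or lower at a Benjamini-Hochberg adjusted p-value under 0.05 over all genes tested together with a fold change above 1.5, which is 0.585 on the log2 scale. The files give no read counts, and the spacing of the lowest FPKM gave an estimate of 8260000 to 10500000 reads in M-MDSC libraries and 6800000 to 8050000 in PMN-MDSC libraries, which put an estimated 32.8 (Gins1) to 13186 (Mki67) reads behind a member in a library. Replicate libraries correlated across genes with r of 0.995 to 0.996. Among the sorting markers, Itgam (CD11b) stood at 285 and 281 FPKM in vehicle M-MDSCs and 825 and 895 in vehicle PMN-MDSCs, Ly6c2 at 1360.2 and 1306 against 511 and 455, and Ly6g was not analysed here. Among the tumor and liver markers, Ttr and Krt8 were listed at 0 in all 12 libraries and Alb reached at most 0.0528 FPKM, while Trf stood at 38.8 to 270.5 FPKM. The sum of these 10 markers in M-MDSCs was 61.8 to 64.7 FPKM under vehicle, 48.5 to 51.3 under MS-275 and 49.7 to 52.7 under CXD101. In PMN-MDSCs it was 157 to 163, 271 to 276 and 234.5 to 234.9. Against vehicle, 1 of 4 tested was higher under each inhibitor in M-MDSCs. In PMN-MDSCs 2 of 3 were higher under MS-275 and 1 of 3 under CXD101, with 0 lower throughout. Their part in the values below was not tested.

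Under vehicle, M-MDSCs carried more of nearly every cell cycle transcript than PMN-MDSCs. Of the 49 members, 43 were lower in PMN-MDSCs and 0 were higher (0 at an unadjusted p under 0.05 in limma), where 16.8% of all genes tested were lower and 17.2% higher. The median difference over the members was -1.40, against -0.01 over all genes. All 18 mitotic members and all 17 replication members were lower, with medians of -1.42 and -1.48. By the estimate above, the M-MDSC libraries were the deeper ones. That estimate assumes FPKM scaled by the reads of each library alone. Whether both subsets were processed together is not given in the sources used here, so that subset and processing cannot be told apart. In bulk RNA from sorted cells, fewer cycling cells and less RNA per cycling cell cannot be told apart. The marker lists differed as well in PMN-MDSCs against M-MDSCs. Mature neutrophil genes were 8 higher and 0 lower of 8 tested, and neutrophil precursor genes 4 higher and 6 lower of 10. Monocyte genes were 2 higher and 4 lower of 7, and progenitor genes 3 higher and 3 lower of 7. Macrophage and eosinophil genes were each 5 higher and 1 lower of 8, and dendritic cell genes 3 higher and 0 lower of 3. Their part was not tested.

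Mki67, which encodes the proliferation antigen Ki-67, stood at 138 and 117 FPKM in vehicle M-MDSCs and at 47.0 and 49.3 in vehicle PMN-MDSCs, a difference of -1.38 ± 0.08 (SE, limma, adjusted p = 1.29e-07). Rrm2, the small subunit of ribonucleotide reductase, stood at 154 and 158 FPKM against 50.8 and 43.5, a difference of -1.71 ± 0.08 (SE, limma, adjusted p = 2.38e-08) and the largest of any member. Mcm5, a subunit of the replicative helicase, stood at 115 and 121 FPKM against 42.6 and 32.5 (difference -1.64 ± 0.12 SE, limma adjusted p = 6.22e-07). For all of them both PMN-MDSC libraries lay below both M-MDSC libraries.

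Pcna, the sliding clamp of DNA polymerase, was the highest member in vehicle M-MDSCs at 318 and 311 FPKM and stood at 169.5 and 153 in vehicle PMN-MDSCs (difference -0.96 ± 0.07 SE, limma adjusted p = 9.44e-07). Cdk1, the kinase that drives entry into mitosis, stood at 48.0 and 46.8 against 19.5 and 16.2 FPKM (difference -1.37 ± 0.10 SE, limma adjusted p = 9.43e-07). Its partner Ccnb1, cyclin B1, stood at 85.8 and 80.1 against 31.4 and 27.8 FPKM (difference -1.46 ± 0.09 SE, limma adjusted p = 2.63e-07). The PMN-MDSC level was thus under the M-MDSC level at each stage of the cycle, from licensing to mitosis.

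The 6 members that were not called lie at the entry to the cycle: Ccnd1, Ccnd3, Cdk6, Cdk2, E2f1 and E2f2. Ccnd3, cyclin D3, was the highest member in vehicle PMN-MDSCs at 208 and 180.1 FPKM and stood at 191 and 220.4 in vehicle M-MDSCs, so the ranges of the subsets overlapped (difference -0.08 ± 0.08 SE, limma adjusted p = 0.394, 95% interval -0.27 to 0.10). Of the other D-type cyclins, Ccnd2 stood at 49.2 and 47.6 against 28.3 and 27.4 FPKM (difference -0.78 ± 0.06 SE, limma adjusted p = 1.38e-06), and Ccnd1 at 15.7 and 18.6 against 13.4 and 11.6 (difference -0.42 ± 0.12 SE, limma adjusted p = 0.00908, under the fold limit). Cyclin D3 was therefore the most abundant D-type cyclin per length in both subsets, in each of the 4 vehicle libraries. Their kinases differed in size: Cdk4 was called lower (-1.08 ± 0.09 SE, limma adjusted p = 2.6e-06), while Cdk6 (-0.30) and E2f1 (-0.56) stayed under the fold limit. Of the 110 further cell cycle genes of a wider list, 93 were lower and 1 higher, which was Pttg1, which encodes securin (0.84). Over all genes 16.8% were lower and 17.2% higher.

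**Figure D1:**
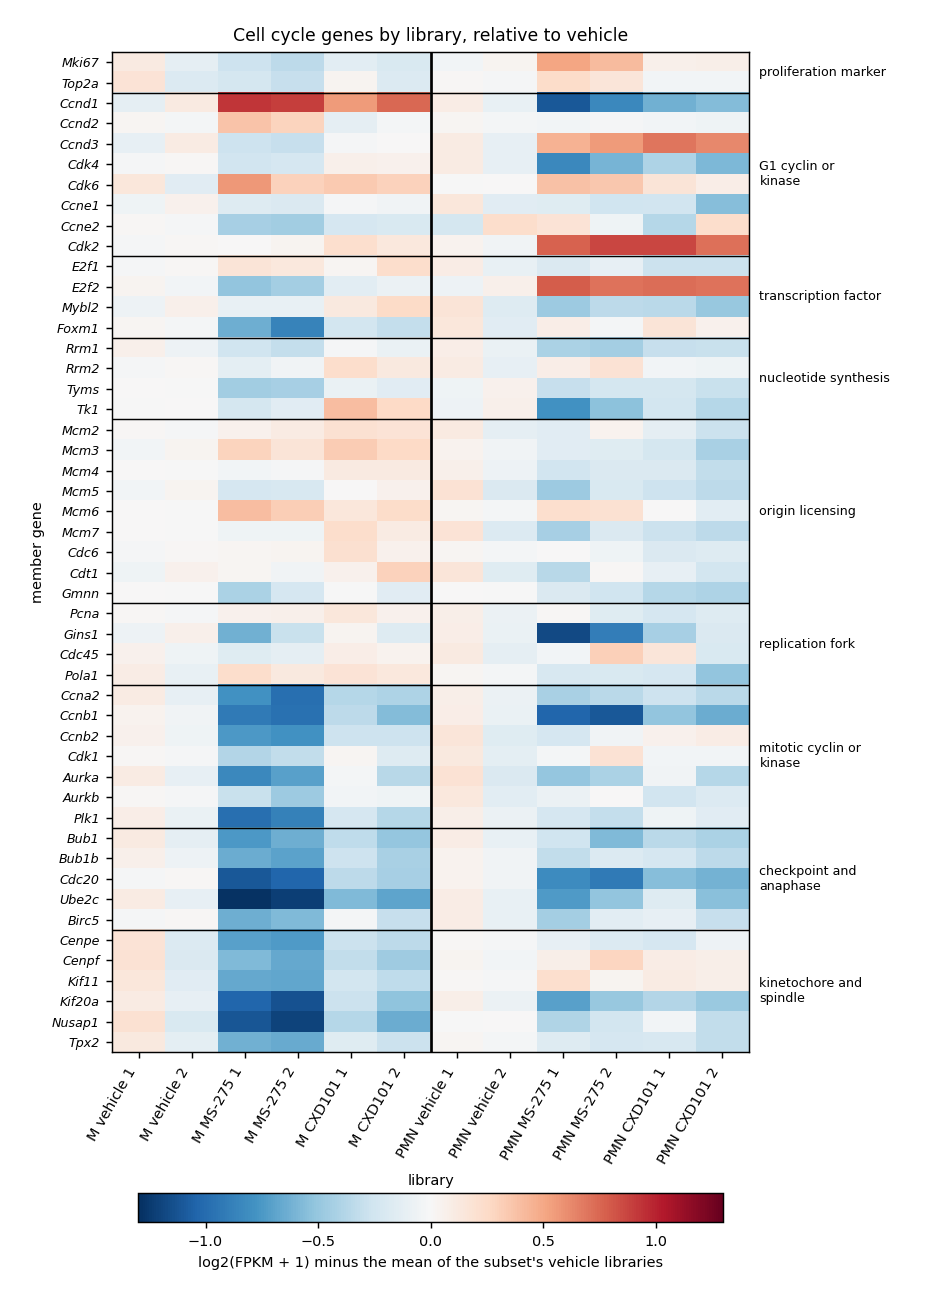
Each cell gives 1 member (vertical axis, grouped by role) in 1 of the 12 libraries (horizontal axis) as log2(FPKM + 1) minus the mean of the 2 vehicle libraries of the same subset, with red for higher and blue for lower. The 3 mitotic blocks at the bottom are blue in both MS-275 libraries of M-MDSCs, where 16 of 18 members were called lower, while Ccnd1 is red in the treated M-MDSC libraries and blue in the treated PMN-MDSC libraries.

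In M-MDSCs, most mitotic genes were lower under MS-275, and no replication member was called. Of the 49 members 17 were lower and 1 higher than in vehicle, where 7.32% of the genes tested were lower and 10.1% higher. The 17 comprised 16 of the 18 mitotic members and Foxm1, the transcription factor of mitotic genes. Of the 17 replication members 0 were called in either direction by limma, and an unadjusted p under 0.05 was met by 2 that were higher and 6 that were lower. The median difference was -0.75 over the mitotic members, -0.05 over the replication members and -0.06 over all genes. At an adjusted p alone 29 members were lower and 5 higher, against 27.3% and 19.2% of all genes.

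The largest falls were in the machinery that ends mitosis and in the spindle. Ube2c, the ubiquitin-conjugating enzyme of the anaphase-promoting complex, stood at 183 and 157 FPKM under vehicle and 69.1 and 72.0 under MS-275, a difference of -1.25 ± 0.08 (SE, limma, adjusted p = 1.53e-05). Cdc20, an activator of the same complex, went from 69.9 and 71.8 to 32.5 and 34.3 FPKM (-1.06 ± 0.06 SE, limma adjusted p = 1.17e-05). In both genes the treated libraries lay well below both vehicle libraries and close to each other. Nusap1, which binds spindle microtubules, fell from 41.9 and 31.6 to 16.3 and 15.2 FPKM (-1.16 ± 0.14 SE, limma adjusted p = 0.000307), and the mitotic kinesin Kif20a from 51.3 and 44.4 to 22.8 and 21.3 (-1.08 ± 0.10 SE, limma adjusted p = 9.1e-05). The other 4 kinetochore and spindle members fell by less: the kinesins Cenpe (-0.73) and Kif11 (-0.67), the spindle factor Tpx2 (-0.64) and the kinetochore protein Cenpf (-0.62).

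Among the mitotic cyclins and kinases, Ccnb1 stood at 85.8 and 80.1 FPKM under vehicle and 43.3 and 41.8 under MS-275 (-0.95 ± 0.08 SE, limma adjusted p = 6.42e-05). Plk1, the polo-like kinase, stood at 68.5 and 60.8 against 32.3 and 34.6 FPKM (-0.93 ± 0.08 SE, limma adjusted p = 7.41e-05). The groups did not overlap in either gene. Ccna2 (cyclin A2, -0.89), Ccnb2 (cyclin B2, -0.77) and Aurka (Aurora kinase A, -0.77) were also called, as were the checkpoint kinases Bub1 (-0.69) and Bub1b (-0.67) and Birc5, or survivin (-0.60). The 2 mitotic members that were not called were lower by less than the fold limit: Cdk1 stood at 48.0 and 46.8 against 36.1 and 37.6 FPKM (-0.35 ± 0.08 SE, limma adjusted p = 0.00644) and Aurkb, the kinase that partners survivin, at 65.1 and 63.6 against 52.5 and 46.1 (-0.38 ± 0.07 SE, limma adjusted p = 0.0033). Foxm1 fell from 23.5 and 22.8 to 14.5 and 12.2 FPKM (-0.75 ± 0.09 SE, limma adjusted p = 0.000348), whereas Mybl2 (B-Myb) stood at 34.7 and 38.3 against 33.9 and 34.1 (-0.10, adjusted p = 0.325 in limma).

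The replication members all stayed within the fold limit of vehicle. Pcna stood at 318 and 311 FPKM under vehicle and 326 and 329 under MS-275 (difference 0.06, 95% interval -0.07 to 0.18), and Rrm2 at 154 and 158 against 142 and 150.5 (-0.09, interval -0.23 to 0.05). Mcm5 was lower by less than the fold limit, at 115 and 121 against 101 and 102 FPKM (-0.22 ± 0.06 SE, limma adjusted p = 0.0138), and Mcm6, another subunit of the same helicase, was higher by less than that limit, at 121 and 120.3 against 159.6 and 151 (0.36 ± 0.06 SE, limma adjusted p = 0.00168). The members of this group thus differed in sign among themselves, and the differences over all 17 ran from -0.46 to 0.36. Mki67 stood at 138 and 117 against 105 and 100.2 FPKM, a difference of -0.31 ± 0.08 (SE, limma, adjusted p = 0.0162) that stayed under the fold limit, and Top2a, the DNA topoisomerase of dividing cells, at 156 and 121 against 117 and 112 (-0.26).

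Ccnd1, which encodes cyclin D1, was the single member called higher. It stood at 15.7 and 18.6 FPKM under vehicle and 33.6 and 32.8 under MS-275, a difference of 0.92 ± 0.10 (SE, limma, adjusted p = 0.000183), with both treated libraries above both vehicle libraries. The other G1 members differed by less than the fold limit and in both directions. Ccnd2 (0.33), Cdk6 (0.43), Ccnd3 (-0.28) and Cdk4 (-0.23) each had an adjusted p under 0.05 in limma, and the transcription factor E2f1 (0.15) did not. Among the D-type cyclins, cyclin D3 remained the most abundant per length under MS-275, at 171 and 166 FPKM.

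In the wider list of 110 further cell cycle genes, 31 of 50 mitotic genes, 1 of 44 replication genes and 1 of 16 genes of the retinoblastoma, E2F and MuvB group were lower, and 0 were called higher. Over all genes 7.32% were lower and 10.1% higher. At an unadjusted p under 0.05, 6 of the 110 were higher in limma. The falls were led by Cdc25b, a phosphatase that activates Cdk1 (-1.03), followed by Gtse1, a microtubule-binding protein of G2 and mitosis, and Kif23, a kinesin of cytokinesis (-0.97). The medians of the 50 and of the 44 genes were -0.64 and -0.08.

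The M-MDSC vehicle library of replicate 1 stood above that of replicate 2 in 16 of the 18 mitotic members, and without it 12 members instead of 17 were called lower under MS-275, with Bub1 (-0.58), Cenpe (-0.55), Cenpf (-0.44), Kif11 (-0.52) and Tpx2 (-0.51) lost. Birc5 lost its call without the MS-275 library of replicate 1 (-0.57) and Cenpf also without that of replicate 2 (-0.58). Other cell type markers moved with the same comparison. The summed FPKM of 8 progenitor genes was 11.8 to 12.8 under vehicle and 100.2 to 101 under MS-275, with 6 of the 7 tested called higher and 1 lower; Cd34 stood at 1.56 and 0.790 against 36.6 and 35.0 FPKM. The sum of 10 neutrophil precursor genes was 2599 to 2688 against 5468 to 5881 (6 higher and 2 lower of 10), with Elane at 436 and 439.9 against 2064 and 2244, and that of 8 macrophage genes 196 to 199 against 101 to 109.9 (0 higher and 6 lower of 8). The mature neutrophil sum was 10767 to 11561 against 21724 to 25648 FPKM (5 higher and 1 lower of 8 tested) and the eosinophil sum 161 to 197 against 396 to 424 (5 higher and 0 lower of 7 tested). The part of these markers in the cell cycle result was not tested.

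**Figure D2:**
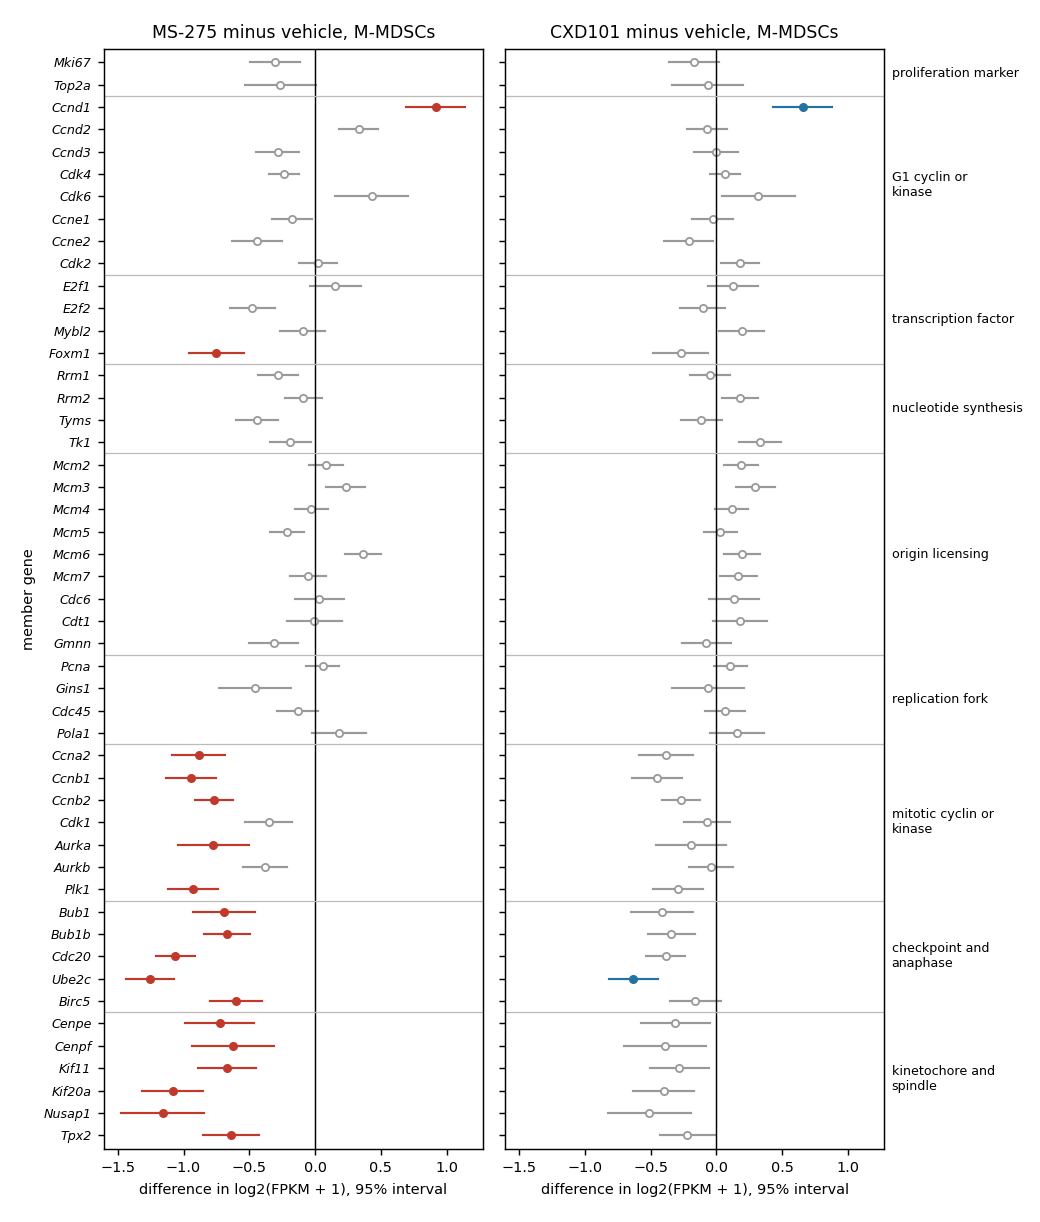
Points give the difference from vehicle in log2(FPKM + 1) (horizontal axis) for each member (vertical axis, grouped by role) in M-MDSCs under MS-275 (left) and CXD101 (right), lines are 95% intervals from limma with 2 libraries per group, and filled colored points were called. Under MS-275, 16 of the 18 mitotic members and Foxm1 were called lower and Ccnd1 higher, and under CXD101 Ube2c was called lower and Ccnd1 higher.

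CXD101, given at the same dose and schedule in M-MDSCs, gave fewer calls among the members. Of the 49 members 1 was lower and 1 higher than in vehicle, against 3.0% and 5.14% of all genes. The member that fell was Ube2c, at 183 and 157 FPKM under vehicle and 113 and 105 under CXD101 (-0.63 ± 0.08 SE, limma adjusted p = 0.00124). The member that rose was Ccnd1, at 15.7 and 18.6 against 25.6 and 29.4 FPKM (0.65 ± 0.10 SE, limma adjusted p = 0.00267). In neither gene did the groups overlap, but both calls were lost without the vehicle library of replicate 1 (Ube2c -0.52, Ccnd1 0.54) and without the CXD101 library of replicate 2 (Ube2c -0.58, Ccnd1 0.56), while 2 members were lower without the vehicle library of replicate 2 or the CXD101 library of replicate 1.

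At an adjusted p alone, 10 of the 18 mitotic members were lower under CXD101. Over all members 10 were lower and 5 higher, against 12.2% and 10.9% of all genes by that limit. Ccnb1 stood at 65.2 and 55.7 FPKM (-0.45 ± 0.08 SE, limma adjusted p = 0.00636) and Cdk1 at 48.3 and 42.0 (-0.07 ± 0.08 SE, limma adjusted p = 0.542). All 18 mitotic differences from vehicle were negative, with a median of -0.33, while 13 of the 17 replication differences were positive, with a median of 0.13 against -0.02 over all genes. Among the replication members, Tk1, the thymidine kinase of the salvage pathway, stood at 66.3 and 66.6 FPKM under vehicle and 88.4 and 79.6 under CXD101 (0.33 ± 0.07 SE, limma adjusted p = 0.0108), and Rrm2 at 182 and 170.0 (0.18 ± 0.06 SE, limma adjusted p = 0.0673). Mcm5 (0.03), Pcna (0.10), Mki67 (-0.17), E2f1 (0.13), Ccnd2 (-0.07), Cdk4 (0.06) and Cdk6 (0.32) did not pass an adjusted p of 0.05 in limma, and Ccnd3 stood at 203 and 207 FPKM against 191 and 220.4. In the wider list, 0 of 110 genes were called under CXD101 by limma, and an unadjusted p under 0.05 was met by 12 that were higher and 32 that were lower. The progenitor sum was 36.2 to 37.5 FPKM and the neutrophil precursor sum 5444 to 5504 under CXD101 (6 higher and 1 lower of 7 tested, and 6 higher and 0 lower of 10). The macrophage sum was 156 to 173 FPKM (0 higher and 3 lower of 8 tested), the mature neutrophil sum 21076 to 22387 (5 higher and 1 lower of 8 tested) and the eosinophil sum 383 to 412 (6 higher and 0 lower of 7 tested). The part of these lists in the values was not tested.

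The inhibitors were compared with each other at the same dose and time in M-MDSCs, without the vehicle libraries that both differences above share. MS-275 gave lower values than CXD101 in 5 members and higher values in 0 (3 at an unadjusted p under 0.05 in limma), where 1.17% and 3.22% of all genes were called. All 5 were mitotic: Cdc20 stood at 32.5 and 34.3 FPKM under MS-275 and 55.8 and 52.3 under CXD101 (-0.68 ± 0.06 SE, limma adjusted p = 0.000943), and Kif20a at 22.8 and 21.3 against 39.1 and 33.0 (-0.68 ± 0.10 SE, limma adjusted p = 0.00547). Nusap1 (-0.65), Plk1 (-0.63) and Ube2c (-0.62) were the others. Without the CXD101 library of replicate 1 the count was 1, with Kif20a (-0.56), Nusap1 (-0.51), Plk1 (-0.56) and Ube2c (-0.57) lost, and without that of replicate 2 it was 8. Nusap1 also lost its call without the MS-275 library of replicate 1 (-0.69) or of replicate 2 (-0.60). At an adjusted p alone, 16 of 18 mitotic and 5 of 17 replication members were lower under MS-275, against 7.73% of all genes. Ccnd2 alone was higher by that limit, which 6.01% of all genes met (63.1 and 59.2 against 44.7 and 47.4 FPKM, 0.40 ± 0.07 SE, limma adjusted p = 0.00756). The marker lists also differed between the inhibitors, with 3 higher and 0 lower of 7 tested for progenitor, 0 higher and 3 lower of 8 tested for macrophage, 0 higher and 4 lower of 10 tested for neutrophil precursor and 2 higher and 0 lower of 8 tested for mature neutrophil genes under MS-275 against CXD101, and their part was not tested.

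For cyclin D1 the difference between the inhibitors did not pass, at 33.6 and 32.8 FPKM under MS-275 and 25.6 and 29.4 under CXD101 (0.26 ± 0.10 SE, limma adjusted p = 0.114, 95% interval 0.04 to 0.49). Nor did it pass for Pcna (-0.05, interval -0.17 to 0.08), Mki67 (-0.14, interval -0.32 to 0.05), Cdk6 (0.11, interval -0.17 to 0.39) or E2f1 (0.03, interval -0.16 to 0.22). Ccnb1 (-0.49), Cdk1 (-0.28), Rrm2 (-0.27), Mcm5 (-0.25), Ccnd3 (-0.28) and Cdk4 (-0.30) were lower under MS-275 at an adjusted p under 0.05 in limma, all below the fold limit. The order in M-MDSCs was vehicle, CXD101, MS-275 for the mitotic genes: the summed FPKM of the 6 kinetochore and spindle members was 184 to 226, 151 to 169 and 109.9 to 114, and the neighbours in that order did not overlap. For the 9 origin licensing members the sums were 762 to 774 under vehicle, 785 to 793 under MS-275 and 846 to 854 under CXD101.

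The contrast between both kinds of gene was summarised in each library as the mean log2(FPKM + 1) of the 18 mitotic members minus that of the 17 replication members. It was -0.24 and -0.42 in vehicle M-MDSCs, -0.71 and -0.80 under CXD101 and -1.02 and -1.06 under MS-275. In PMN-MDSCs it was -0.32 and -0.33 under vehicle, -0.31 and -0.32 under CXD101 and -0.40 and -0.45 under MS-275. In M-MDSCs the 3 groups lay apart, and in PMN-MDSCs all 6 libraries lay within the range from -0.45 to -0.31, with both MS-275 libraries lowest. A similar difference does not mean equal levels. In PMN-MDSCs the mitotic mean was 4.42 and 4.27 under vehicle, 4.01 and 4.06 under MS-275 and 4.17 and 4.08 under CXD101. The replication mean was 4.74 and 4.60, 4.40 and 4.51, and 4.48 and 4.39 in the same order.

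**Figure D3:**
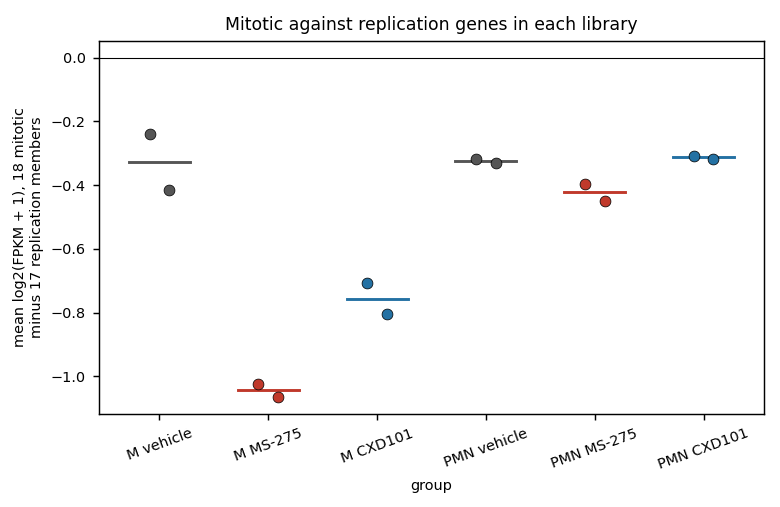
The vertical axis gives the mean log2(FPKM + 1) of 18 mitotic members minus that of 17 replication members in each library (points, 2 per group) with the group mean (line), and the horizontal axis gives the 6 groups. M-MDSC libraries run from -0.24 and -0.42 under vehicle to -1.02 and -1.06 under MS-275, while the 6 PMN-MDSC libraries lie close together.

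Because the mitotic members moved together, the promoters were examined for elements of cell cycle genes. RefSeq promoter windows of 300 bases (250 before and 50 after the gene start, GRCm38.p6) were matched by symbol for 38 of the 49 members and 27025 genes in all. Both strands were searched for the CHR element (TTTGAA or TTCGAA), the CCAAT box (CCAAT) and the E2F core (TTTGGCG or TTTCGCG or TTCCCGC), and a gene was counted when any of its windows held a match. The CHR was held by 10 of 14 mitotic members (71.4%) and 3 of 14 replication members (21.4%), and by 21.7% of all promoters. The E2F core was held by 1 of 14 mitotic members (7.14%) and 8 of 14 replication members (57.1%), against 7.64% of all. The CCAAT box was in 12 and 10 of the 14, against 41.1% of all. The 13 matched members that were lower under MS-275 in M-MDSCs were the 14 matched mitotic members without Cdk1. A split by response therefore repeats the split by role: 9 of the 13 held the CHR and 0 the E2F core, and of the 25 others 7 and 11. These counts describe letters in short windows and were not tested, and matches that overlap were each counted.

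The windows below are those of the 2 called members with the largest differences under MS-275 in each subset and of Cdk1 and Mcm5 as a mitotic and a replication gene, 5′ to 3′ in the direction of transcription, with matches to any of the 3 motifs, on either strand, in capitals. The rule also selected Gins1.
Ube2c (chr2:164769679-164769978, plus strand): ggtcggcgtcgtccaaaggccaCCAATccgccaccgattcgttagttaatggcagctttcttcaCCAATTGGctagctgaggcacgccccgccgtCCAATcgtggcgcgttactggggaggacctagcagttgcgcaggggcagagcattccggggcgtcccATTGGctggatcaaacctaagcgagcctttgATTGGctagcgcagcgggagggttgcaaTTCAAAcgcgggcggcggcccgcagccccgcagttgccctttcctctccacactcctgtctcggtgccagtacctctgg
Nusap1 (chr2:119618048-119618347, plus strand): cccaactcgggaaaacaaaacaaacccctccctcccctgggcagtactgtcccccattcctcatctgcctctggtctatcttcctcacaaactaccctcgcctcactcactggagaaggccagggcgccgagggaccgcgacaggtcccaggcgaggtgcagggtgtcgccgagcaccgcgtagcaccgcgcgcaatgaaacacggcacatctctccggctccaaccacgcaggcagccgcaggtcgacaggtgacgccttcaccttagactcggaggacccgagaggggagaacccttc
Ccnb1 (chr13:100786437-100786736, minus strand): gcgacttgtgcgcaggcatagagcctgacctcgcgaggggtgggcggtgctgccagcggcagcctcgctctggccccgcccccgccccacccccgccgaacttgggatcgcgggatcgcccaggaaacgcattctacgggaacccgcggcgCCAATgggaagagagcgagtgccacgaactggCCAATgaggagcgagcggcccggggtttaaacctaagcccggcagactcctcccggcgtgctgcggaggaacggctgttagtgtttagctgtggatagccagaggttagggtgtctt
Cdk1 (chr10:69352863-69353162, minus strand): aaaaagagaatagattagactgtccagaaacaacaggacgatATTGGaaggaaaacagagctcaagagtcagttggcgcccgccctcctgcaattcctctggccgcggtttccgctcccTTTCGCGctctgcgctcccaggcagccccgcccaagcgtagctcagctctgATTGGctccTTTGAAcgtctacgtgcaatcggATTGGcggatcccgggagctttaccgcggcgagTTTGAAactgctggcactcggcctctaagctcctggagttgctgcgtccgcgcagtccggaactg
Mcm5 (chr8:75109259-75109558, plus strand): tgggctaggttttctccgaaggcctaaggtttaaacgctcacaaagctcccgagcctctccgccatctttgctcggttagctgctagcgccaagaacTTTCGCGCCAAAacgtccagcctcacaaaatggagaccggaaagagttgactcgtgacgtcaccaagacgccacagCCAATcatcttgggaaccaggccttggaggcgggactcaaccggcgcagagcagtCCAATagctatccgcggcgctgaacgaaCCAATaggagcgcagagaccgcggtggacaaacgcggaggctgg
Ube2c held 1 CHR and 6 CCAAT matches and 0 E2F cores, and Mcm5 2 E2F cores, which overlap, 3 CCAAT boxes and 0 CHR matches. Cdk1, the mitotic member with one of the smallest falls, held 2 CHR, 3 CCAAT and 1 E2F match. Ccnb1 held 2 CCAAT boxes and 0 of the other motifs as spelled here, and Nusap1, whose fall in M-MDSCs was the second largest, held 0 of the 3. The genes lie in GRCm38 at chr2:164769898-164778822, plus strand (Ube2c), chr2:119618298-119651244, plus strand (Nusap1), chr13:100778650-100786570, minus strand (Ccnb1), chr10:69335146-69352938, minus strand (Cdk1), chr8:75109569-75128439, plus strand (Mcm5) and chr7:144929931-144939925, minus strand (Ccnd1), by GENCODE vM21.

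In PMN-MDSCs the members called under MS-275 were spread over G1, replication and mitosis. Of the 49 members 8 were lower and 2 higher than in vehicle, against 14.2% and 14.6% of all genes, so the share lower (16.3%) was close to the background. The median over the members was -0.19 and over all genes -0.03. Among the mitotic members 4 of 18 were lower, and among the replication members 2 of 17. At an adjusted p alone 16 members were lower and 7 higher, against 28.5% and 25.3% of all genes.

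Ccnb1 fell most, from 31.4 and 27.8 FPKM under vehicle to 14.0 and 13.2 under MS-275 (-1.07 ± 0.10 SE, limma adjusted p = 8.47e-05). Cdc20 went from 28.5 and 26.8 to 15.3 and 14.2 FPKM (-0.86 ± 0.08 SE, limma adjusted p = 0.000129), Ube2c from 69.6 and 60.7 to 38.6 and 45.4 (-0.62 ± 0.14 SE, limma adjusted p = 0.00627) and Kif20a from 18.97 and 16.9 to 10.6 and 12.4 (-0.60 ± 0.11 SE, limma adjusted p = 0.00275). Of the replication genes, Gins1, a subunit of the GINS complex of the helicase, fell from 12.1 and 10.6 to 4.43 and 5.60 FPKM (-1.04 ± 0.14 SE, limma adjusted p = 0.000667) and Tk1 from 23.7 and 26.0 to 14.0 and 16.8 (-0.66 ± 0.11 SE, limma adjusted p = 0.00159). In all 6 genes both treated libraries lay below both vehicle libraries. Without the MS-275 library of replicate 1, 5 members were called lower instead of 8, with Kif20a (-0.49), Tk1 (-0.54) and Ube2c (-0.51) lost, and without the vehicle library of replicate 1 the calls of Kif20a (-0.52) and Ube2c (-0.53) were lost.

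The G1 genes moved in opposite directions. Ccnd1 fell from 13.4 and 11.6 to 5.28 and 6.56 FPKM (-0.97 ± 0.13 SE, limma adjusted p = 0.000525) and Cdk4 from 113 and 97.1 to 58.0 and 68.5 (-0.72 ± 0.11 SE, limma adjusted p = 0.00114). Cdk2, the kinase of the E-type cyclins, rose from 31.7 and 29.5 to 52.7 and 56.5 FPKM (0.82 ± 0.08 SE, limma adjusted p = 0.000146), and E2f2, a transcription factor of the cell cycle, rose from 16.6 and 18.4 to 30.9 and 29.1 (0.75 ± 0.08 SE, limma adjusted p = 0.000243). Ccnd3 stood at 208 and 180.1 against 265 and 284 FPKM (0.50 ± 0.08 SE, limma adjusted p = 0.0015) and Cdk6 at 9.72 and 9.73 against 12.97 and 12.6 (0.36 ± 0.09 SE, limma adjusted p = 0.0116), both higher by less than the fold limit, and E2f1 (-0.15) and Ccnd2 (-0.03) did not pass.

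Mki67 was higher in both MS-275 libraries of PMN-MDSCs, at 68.9 and 64.5 FPKM against 47.0 and 49.3 under vehicle (0.46 ± 0.07 SE, limma adjusted p = 0.000949), below the fold limit. Cdk1 (19.5 and 16.2 against 17.4 and 20.3 FPKM, 0.08), Pcna (-0.07), Rrm2 (0.14) and Mcm5 (42.6 and 32.5 against 26.6 and 32.4 FPKM, -0.33) did not pass an adjusted p of 0.05 in limma. In the wider list, 10 of 44 replication, 5 of 50 mitotic and 2 of 16 other genes were lower and 0 were higher. Over all genes 14.2% were lower and 14.6% higher, so the share lower over the list as a whole was near the background. In limma, 9 of 110 were higher at an unadjusted p under 0.05. The falls were led by Gins2, another GINS subunit (-1.27), Pole2, a subunit of DNA polymerase epsilon (-0.86), and Pold2, a subunit of DNA polymerase delta (-0.84).

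Other markers moved in PMN-MDSCs as well. S100a8 and S100a9 made up 10.2% to 13.7% of the summed FPKM under vehicle and 27.3% to 29.7% under MS-275, and the sum of the 10 neutrophil precursor genes was 2895 to 2920.1 FPKM against 21057 to 21074 FPKM (7 higher and 0 lower of 10). The progenitor sum was 23.7 to 23.9 against 65.7 to 66.0 (4 higher and 1 lower of 5 tested), and the macrophage sum 237 to 255 against 139 to 155 (1 higher and 6 lower of 8). Mature neutrophil genes summed to 69696 to 95605 FPKM under vehicle and 235759 to 259129 under MS-275 (5 higher and 1 lower of 8 tested). Monocyte genes summed to 798 to 888 against 1783 to 2015 FPKM (1 higher and 2 lower of 7 tested). Eosinophil genes summed to 342 to 378 against 384 to 423 FPKM (1 higher and 1 lower of 8 tested). Of the dendritic cell genes, 0 were higher and 3 lower of 3 tested. The part of these markers in the values of the members was not tested.

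**Figure D4:**
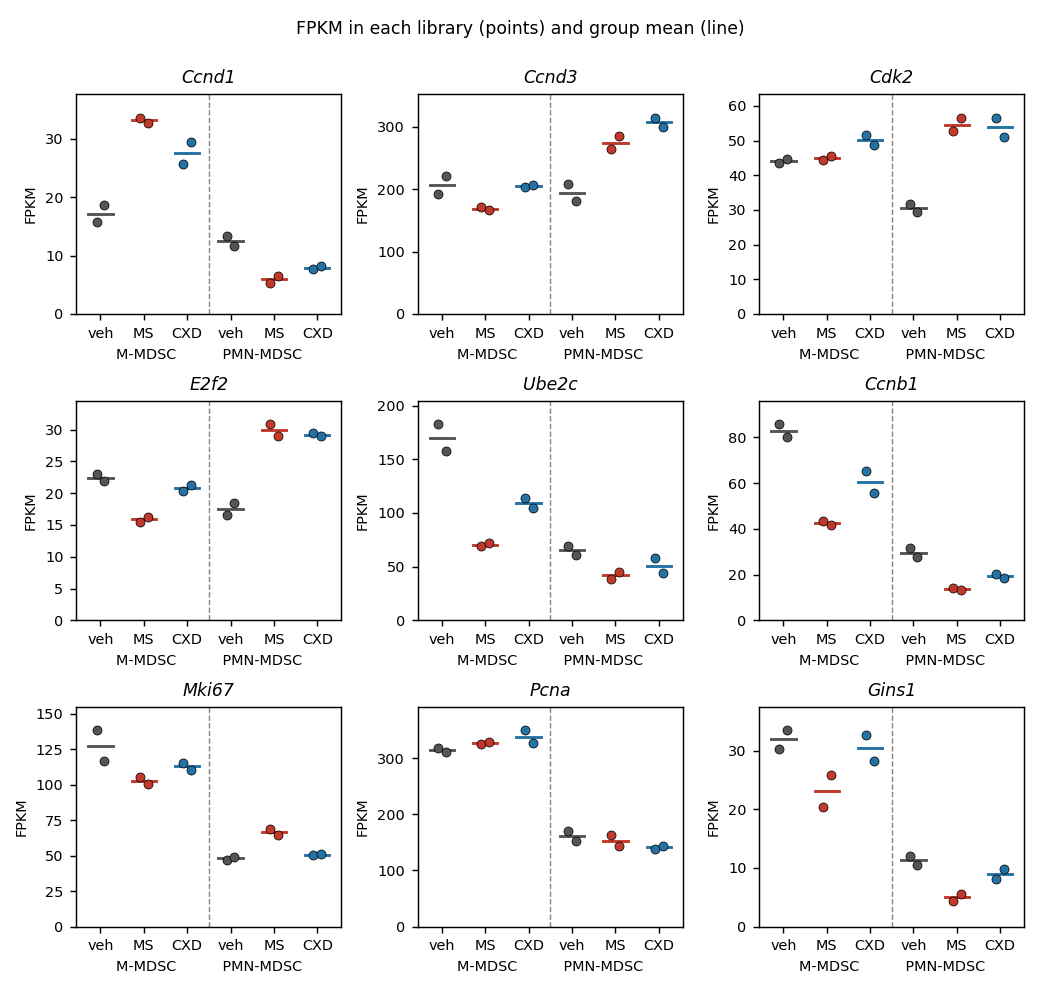
FPKM (vertical axes, from 0) of 9 members in each of the 12 libraries (points) with the group mean (line), for vehicle (veh, grey), MS-275 (MS, red) and CXD101 (CXD, blue), with M-MDSCs left and PMN-MDSCs right of the dashed line. Ccnd1 stands higher under both inhibitors in M-MDSCs and lower in PMN-MDSCs, while Cdk2 and E2f2 were called higher in treated PMN-MDSCs and not in treated M-MDSCs.

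With CXD101 in PMN-MDSCs, 2 members were lower and 3 higher than in vehicle, against 9.54% and 11.9% of all genes, and at an adjusted p alone 13 members were lower and 3 higher, against 23.9% and 21.4% of all genes. Those that rose were Cdk2 (31.7 and 29.5 to 56.6 and 51.0 FPKM, 0.79 ± 0.08 SE, limma adjusted p = 0.000264), E2f2 (16.6 and 18.4 to 29.4 and 29.0 FPKM, 0.71 ± 0.08 SE, limma adjusted p = 0.000461) and Ccnd3 (208 and 180.1 to 314 and 300.0 FPKM, 0.66 ± 0.08 SE, limma adjusted p = 0.00056). Ccnd3 lost its call without the vehicle library of replicate 2 (0.56). Ccnd1 (13.4 and 11.6 to 7.76 and 8.14 FPKM, -0.59 ± 0.13 SE, limma adjusted p = 0.00718) and Cdc20 (28.5 and 26.8 to 18.5 and 17.7 FPKM, -0.59 ± 0.08 SE, limma adjusted p = 0.00119) were lower by just over the fold limit, and both lost the call under either other scaling of the libraries, where they were under the fold limit. The count of 2 was 0 without the vehicle library of replicate 1, 5 without that of replicate 2 and 1 without the CXD101 library of replicate 2. Ccnd1 (-0.56 to -0.50) and Cdc20 (-0.55 to -0.54) each lost the call without the vehicle library of replicate 1, and 1 of them without either CXD101 library. Ccnb1, at 20.4 and 18.6 FPKM, was just under that limit (-0.58 ± 0.10 SE, limma adjusted p = 0.00215). Cdk4 was lower below the limit (-0.49 ± 0.11 SE, limma adjusted p = 0.00874), and Mki67 (0.07), Cdk1 (-0.03), Mcm5 (-0.30), Pcna (-0.19), Rrm2 (-0.05), E2f1 (-0.28), Ccnd2 (-0.04) and Cdk6 (0.13) did not pass. All 17 replication differences were negative, with a median of -0.26 against -0.03 over all genes, and 0 of them were called by limma (8 were lower at an unadjusted p under 0.05). In the wider list 3 genes were lower, E2f5 (-0.97), Gins2 (-0.89) and Orc1, a subunit of the origin recognition complex (-0.81), and 0 higher, with 5 higher at an unadjusted p under 0.05 in limma. S100a8 and S100a9 made up 28.7% to 30.9% of the summed FPKM, and the neutrophil precursor sum was 26985 to 27559 FPKM (7 higher and 0 lower of 10). The progenitor sum was 58.6 to 59.7 (3 higher and 0 lower of 5 tested) and the macrophage sum 133 to 143 (0 higher and 6 lower of 8). The mature neutrophil sum was 244131 to 269762 (5 higher and 0 lower of 8 tested) and the monocyte sum 1690 to 1901 (1 higher and 2 lower of 7 tested). The eosinophil sum was 466 to 493 (1 higher and 1 lower of 8 tested) and the dendritic cell sum 5.65 to 5.68 (0 higher and 2 lower of 3 tested). The part of these lists was not tested.

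Between the inhibitors, 0 members were called in PMN-MDSCs by limma, where 0.34% of all genes were lower and 0.465% higher under MS-275. At an unadjusted p under 0.05, 4 members were higher and 5 lower under MS-275, and at an adjusted p alone 1 member was higher, Mki67, at 68.9 and 64.5 FPKM under MS-275 and 50.5 and 50.9 under CXD101 (0.39 ± 0.07 SE, limma adjusted p = 0.0499), and 0 were lower. By that limit 0.68% of all genes were higher and 0.492% lower. The intervals leave room for differences: that of Gins1 (4.43 and 5.60 against 8.10 and 9.81 FPKM, difference -0.73, the largest among the members) ran from -1.06 to -0.39, that of Ccnb1 (-0.49) from -0.71 to -0.27 and that of Ccnd1 (-0.38) from -0.67 to -0.08. For Cdk2 (0.02, interval -0.17 to 0.21), Ccnd2 (0.01, interval -0.15 to 0.18) and E2f2 (0.03, interval -0.16 to 0.23) the intervals were within the fold limit on both sides. The remaining members described throughout gave 0.19 (Rrm2), -0.03 (Mcm5), 0.12 (Pcna), 0.11 (Cdk1), 0.13 (E2f1), -0.16 (Ccnd3), -0.23 (Cdk4) and 0.24 (Cdk6). The dose of the PMN-MDSC experiment is not given in the sources used here, so that equal doses are not established for this comparison.

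The responses of the subsets were then compared directly, as the interaction term of a model over all 12 libraries. For MS-275, the response of 11 members was more positive in PMN-MDSCs and that of 1 more negative in PMN-MDSCs than in the other subset, against 8.65% and 9.48% of all genes. At an adjusted p alone these counts were 18 and 5, against 15.9% and 15.1%. The largest term was that of Ccnd1, whose levels rose in M-MDSCs and fell in PMN-MDSCs (-1.89 ± 0.17 SE, limma adjusted p = 3.87e-05). It was followed by E2f2, with 23.0 and 22.0 against 15.5 and 16.3 FPKM in M-MDSCs and a rise in PMN-MDSCs (1.22 ± 0.10 SE, limma adjusted p = 3.12e-05). Of the mitotic members 6 of 18 had a more positive response in PMN-MDSCs: Nusap1 (0.84), Cenpf (0.80), Kif11 (0.79), Plk1 (0.66), Ccnb2 (0.64) and Ube2c (0.63). Of these, Ube2c fell in both subsets, and the others were called lower in M-MDSCs and not called in PMN-MDSCs. Foxm1 (0.79), Cdk2 (0.79), Ccnd3 (0.78) and Mki67 (0.77) made up the rest, and 0 of the 17 replication members were called by limma (0 more positive and 4 more negative at an unadjusted p under 0.05). The 1 member with a more negative response became 2 without the M-MDSC MS-275 library of replicate 1 or the PMN-MDSC vehicle library of replicate 2, and 4 without the PMN-MDSC MS-275 library of replicate 2. Of the 11 members, Ccnb2 (0.48 to 0.58), Plk1 (0.58) and Ube2c (0.52 to 0.60) lost their calls without the M-MDSC vehicle library of replicate 1, Ccnb2 and Ube2c also without the vehicle or MS-275 library of replicate 2 of PMN-MDSCs, and Ube2c without the M-MDSC MS-275 library of replicate 1. In the wider list 13 of 50 mitotic genes had a more positive response in PMN-MDSCs and 0 a more negative one in limma (0 at an unadjusted p under 0.05).

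For 4 members that fell under MS-275 in both subsets, Ccnb1, Cdc20, Ube2c and Kif20a, the interaction was called for Ube2c alone. Ccnb1 fell by 0.95 in M-MDSCs and by 1.07 in PMN-MDSCs, with an interaction of -0.12 (95% interval -0.40 to 0.16). The terms of Cdk1 (0.43), Ccnd2 (-0.36) and Cdk4 (-0.49) passed an adjusted p of 0.05 in limma below the fold limit, and those of Mcm5 (-0.12), Rrm2 (0.23), Pcna (-0.13), E2f1 (-0.30) and Cdk6 (-0.07) did not.

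For CXD101 the interaction was more positive in PMN-MDSCs for 3 members and more negative for 4, against 7.31% and 6.59% of all genes, and at an adjusted p alone the counts were 3 and 9, against 1419 and 1405 of the 11662 genes tested. Those called more positive were E2f2 (0.82 ± 0.10 SE, limma adjusted p = 0.000458), Ccnd3 (0.67) and Cdk2 (0.62). Those called more negative were Ccnd1 (-1.25 ± 0.17 SE, limma adjusted p = 0.000585), Tk1 (-0.63), Mcm3 (-0.62), another subunit of the replicative helicase, and Mybl2 (-0.61), with counts of 2 without the M-MDSC CXD101 library or the PMN-MDSC vehicle library of replicate 1 and 1 without the PMN-MDSC CXD101 library of replicate 2. Without the PMN-MDSC vehicle library of replicate 2, 1 member instead of 3 had a more positive response. In fits without 1 library that lost the call, the term was -0.57 to -0.56 for Tk1, -0.58 to -0.52 for Mcm3 and -0.56 to -0.45 for Mybl2. It was 0.56 for Ccnd3 and 0.54 to 0.58 for Cdk2. E2f2 and Ccnd1 kept their calls in all 12 fits without 1 library, though those without an MS-275 library could not move the term. Mcm3 stood at 112 and 118 FPKM under vehicle and 145 and 137 under CXD101 in M-MDSCs, and at 41.3 and 38.5 against 33.8 and 29.5 in PMN-MDSCs. Of the 18 mitotic members 0 were called by limma, and an unadjusted p under 0.05 was met by 3 with a more positive and 0 with a more negative response. Ccnb1 (-0.12), Cdk1 (0.04), Mki67 (0.24), Rrm2 (-0.23), Mcm5 (-0.33), Pcna (-0.30), Ccnd2 (0.03) and Cdk6 (-0.19) did not pass, while Cdk4 (-0.56) and E2f1 (-0.41) passed the adjusted p below the fold limit. For each inhibitor the responses in the 2 subsets rest on separate vehicle libraries, but the MS-275 and CXD101 responses within a subset share theirs.

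**Figure D5:**
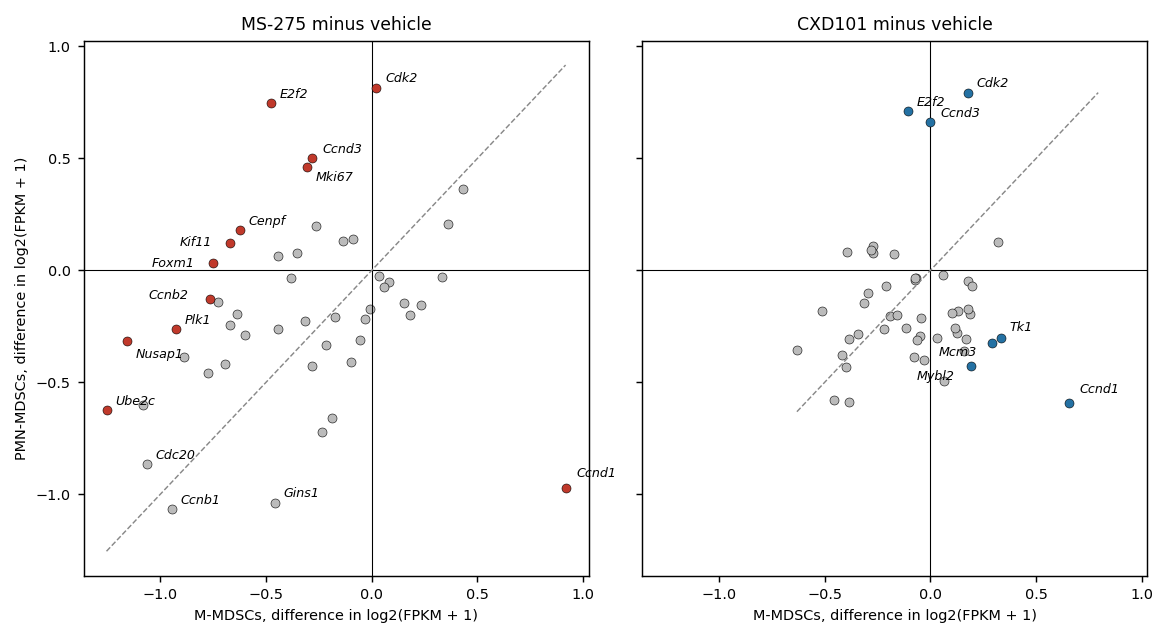
Each point is 1 member, with its difference from vehicle in log2(FPKM + 1) in M-MDSCs (horizontal axis) and in PMN-MDSCs (vertical axis) under MS-275 (left) and CXD101 (right). The dashed line marks equal responses, and colored points had an interaction that was called, 12 for MS-275 and 7 for CXD101. Ccnd1 lies alone at the lower right in both panels, higher in M-MDSCs and lower in PMN-MDSCs.

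The genes of the cyclin-dependent kinase inhibitors, which act against the same kinases, were read alongside. Cdkn2c (p18) stood at 14.6 and 15.3 FPKM in vehicle M-MDSCs, 7.44 and 5.98 under MS-275 (-1.05 ± 0.11 SE, limma adjusted p = 0.000175) and 8.10 and 7.30 under CXD101 (-0.88 ± 0.11 SE, limma adjusted p = 0.00127). Cdkn3, a phosphatase of cyclin-dependent kinases, went from 34.5 and 29.7 to 15.9 and 16.4 FPKM under MS-275 (-0.95 ± 0.09 SE, limma adjusted p = 7.69e-05). Under CXD101 Cdkn3 stood at 22.0 and 20.9 FPKM and was not called, below the fold limit (-0.56 ± 0.09 SE, limma adjusted p = 0.00296). Neither gene was called under either inhibitor in PMN-MDSCs. Cdkn1b (p27) stood at 16.5 and 19.1 FPKM in vehicle PMN-MDSCs, 32.5 and 32.2 under MS-275 and 28.4 and 28.3 under CXD101, higher under both (0.83 and 0.64), and at 9.59 and 7.39 in vehicle M-MDSCs against 7.87 and 8.40 under MS-275. Cdkn2d (p19) was also higher in treated PMN-MDSCs (0.68 and 0.75). In M-MDSCs it was lower under MS-275 by less than the fold limit (-0.50, limma adjusted p = 0.00253). Cdkn1a (p21), the highest of the 8 in every library, fell in PMN-MDSCs from 217 and 187 to 116 and 128 FPKM under MS-275 and 124 and 112 under CXD101 (-0.72 and -0.77). In M-MDSCs it stood at 163 and 165 under vehicle, 138 and 139 under MS-275 and 179 and 186 under CXD101. The MS-275 interaction was called for Cdkn2d (1.18), Cdkn2c (1.03), Cdkn1b (0.87) and Cdkn3 (0.68). That of CXD101 was called for Cdkn2d (0.93), Cdkn1b (0.65) and Cdkn1a (-0.93). Cdkn2a (p16 and p19ARF) and Cdkn1c (p57) were called higher under MS-275 in M-MDSCs from low levels, Cdkn2a from 0.147 and 0.273 to 2.53 and 1.77 FPKM. In PMN-MDSCs both were below the filter and not tested against vehicle. There Cdkn2a stood at 0.347 and 0 under vehicle and 1.13 and 0.765 FPKM under MS-275, and Cdkn1c at 0.198 and 0.0679 against 0.827 and 0.728. Neither MS-275 interaction was called (limma adjusted p = 0.122 for Cdkn2a and 0.146 for Cdkn1c). Cdkn2b stayed under 1 FPKM in all 12 libraries.

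Some members share sequence with other genes, which limits how exactly their FPKM can be assigned. In GENCODE vM21, 14.8% of the 101-base stretches of Ccnb1 transcripts (a read length) also lie in transcripts of other genes, among them the pseudogene Ccnb1-ps, and 15.3% of those of Mybl2. The other 47 members had under 10%, with Pcna at 9.98%, and 35 had none. Exons of 18 members overlap an exon of another gene, among them Ccnd1, Cdk2, Cdk4, Tk1, Cdc20, Ube2c and Nusap1, each with a gene on the opposite strand. Foxm1, Top2a and Mcm7 overlap a gene on the same strand, which strand cannot separate. The kit kept the strand, but whether fragments were assigned by strand is not given in the sources used here.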

How the data were processed

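RNA-seq was measured in 12 libraries of sorted mouse MDSCs, 2 in each of 6 groups. The authors deposited FPKM per gene, made, per the submitters' processing notes, with TopHat2 2.1.1, Bowtie2 2.2.8, SAMtools 0.1.18 and Cuffdiff 2.2.1 on mm10; the annotation and the use of strand are not given in the sources used here. Rows were joined by symbol across libraries. The FPKM files give no read counts, so that the depth is an estimate from the spacing of the lowest FPKM. The estimate assumes FPKM scaled by the reads of each library alone. Genes with at least 1 FPKM in at least 2 libraries were tested as log2(FPKM + 1) with limma 3.58.1 in R 4.3.3, with trended empirical Bayes variances, on the 6 M-MDSC libraries (11078 genes), the 6 PMN-MDSC libraries (11184 genes), or all 12 for differences between subsets and interactions (11662 genes). P-values were adjusted by Benjamini-Hochberg over all genes tested. The limits, an adjusted p under 0.05 and a fold change above 1.5, follow the study. The fits were tested on simulated data. Alternatives were an adjusted p alone, a pseudocount of 0.1, no filter, median-of-ratios scaling, quantile normalization, other sets of libraries, a block on the replicate number and leaving out each library in turn. Samples were grouped by their titles. The members, the gene lists and the promoter motifs were chosen with earlier results of these data known. In each comparison the called members were described, largest first, with 12 members (Mki67, Mcm5, Rrm2, E2f1, Ccnd1, Ccnd2, Ccnd3, Cdk4, Cdk6, Cdk1, Ccnb1 and Pcna) described throughout; Aurkb, Top2a, Mcm6, Mybl2, Tk1, Cdk2, E2f2, Gins1 and Mcm3 were named after their values were seen where they had not been called. Promoter windows come from RefSeq (GRCm38.p6) and gene positions from GENCODE vM21.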

Additional observations from a re-analysis of the deposited data

Results flagged for a closer look

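The response of 12 members to MS-275 differed between PMN-MDSCs and M-MDSCs by the interaction term in limma, given as the response in PMN-MDSCs minus that in M-MDSCs on the log2(FPKM + 1) scale. The term was -1.89 for Ccnd1, 1.22 for E2f2, 0.84 for Nusap1, 0.80 for Cenpf, 0.79 for Cdk2, 0.79 for Foxm1, 0.79 for Kif11, 0.78 for Ccnd3, 0.77 for Mki67, 0.66 for Plk1, 0.64 for Ccnb2 and 0.63 for Ube2c, with adjusted p-values from 3.12e-05 (E2f2) to 0.0223 (Ube2c). For CXD101 the term passed in 7 members, at -1.25 for Ccnd1, 0.82 for E2f2, 0.67 for Ccnd3, 0.62 for Cdk2, -0.63 for Tk1, -0.62 for Mcm3 and -0.61 for Mybl2, with adjusted p-values in limma from 0.000458 (E2f2) to 0.0171 (Mybl2). Of these, Ccnd1 was called higher in M-MDSCs and lower in PMN-MDSCs under both inhibitors, whose responses share their vehicle libraries within a subset. Over all genes tested, the MS-275 term was called more positive in 8.65% and more negative in 9.48%. For CXD101 these shares were 7.31% and 6.59%, and the count of 7 members was near them.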

How the results depend on the processing

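The 43 members lower in PMN-MDSCs than in M-MDSCs under vehicle were each called in all 18 alternatives, and 10 of the 17 lower under MS-275 in M-MDSCs and Ccnd1 in all 12. Some of these alternatives could not move a difference. Leaving out a library of a group outside the comparison, or a block on the replicate number, can change only the p-value. At an adjusted p alone the counts of members higher and lower were 5 and 29 for MS-275 in M-MDSCs, 5 and 10 for CXD101 in M-MDSCs, 1 and 26 for MS-275 against CXD101 in M-MDSCs, and 7 and 16 for MS-275 in PMN-MDSCs. By the same limit 13 were lower under CXD101 in PMN-MDSCs, 1 was higher under MS-275 against CXD101 in PMN-MDSCs, 18 and 5 differed in the response to MS-275 between subsets, and 9 had a more negative response to CXD101 in PMN-MDSCs. With quantile normalization 0 members were lower under CXD101 in M-MDSCs, 3 under MS-275 against CXD101 in M-MDSCs and 0 under CXD101 in PMN-MDSCs, and 2 had a more negative response to MS-275 in PMN-MDSCs. Median-of-ratios scaling gave 0 lower under CXD101 in PMN-MDSCs, a pseudocount of 0.1 gave 2 with a more negative response to MS-275, and a fit on all 12 libraries gave 1 lower under MS-275 than CXD101 in PMN-MDSCs. Median-of-ratios scaling also ended the MS-275 calls of Birc5 in M-MDSCs (-0.56) and Kif20a in PMN-MDSCs (-0.58). Quantile normalization ended those of Birc5 (-0.46), Bub1b (-0.55), Kif11 (-0.55) and Tpx2 (-0.51) in M-MDSCs and of Kif20a (-0.53) and Ube2c (-0.58) in PMN-MDSCs, and the MS-275 interaction calls of Ccnb2 (0.57) and Ube2c (0.57). The causes were not tested.

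Leaving out each library in turn gave 0 to 1 higher and 0 to 2 lower for CXD101 in M-MDSCs, 12 to 17 lower for MS-275 in M-MDSCs, 1 to 8 lower for MS-275 against CXD101 in M-MDSCs, 5 to 9 lower for MS-275 and 0 to 5 for CXD101 in PMN-MDSCs, 1 to 4 with a more negative response to MS-275, and 1 to 3 with a more positive and 1 to 6 with a more negative response to CXD101 in PMN-MDSCs. A library left alone in its group is assumed to vary like the others. Single values were recomputed for the members called in a comparison and the 12 described throughout, and among these the values that changed sign were those of 8 members, none called there: with quantile normalization Rrm2 under MS-275 in M-MDSCs (0.0454), Ccnd3 under CXD101 in M-MDSCs (0.052, and 0.0059 with median-of-ratios scaling), Ccnd2 in PMN-MDSCs under MS-275 (0.0335) and CXD101 (0.0101) and Cdk1 under CXD101 in PMN-MDSCs (0.0107). Without 1 library they were, from the lowest to the highest value over such fits, for CXD101 in M-MDSCs, Mcm5 (-0.0052 to 0.0661), Ccnd3 (-0.1052 to 0.098) and Cdk1 (-0.1697 to 0.0267), for MS-275 against CXD101 Cdk6 (-0.0215 to 0.2435), E2f1 (-0.0779 to 0.1336), Pcna (-0.0929 to 0.001) and, in PMN-MDSCs, Mcm5 (-0.1665 to 0.1061), for MS-275 in PMN-MDSCs Pcna (-0.1619 to 0.017) and Cdk1 (-0.0494 to 0.2033), for CXD101 in PMN-MDSCs Rrm2 (-0.1576 to 0.0617) and Cdk1 (-0.1604 to 0.0922), for the subsets under vehicle Ccnd3 (-0.1882 to 0.0199), and for the MS-275 interaction Cdk6 (-0.2115 to 0.0792) and Mcm5 (-0.3052 to 0.0741), and for that of CXD101 Ccnd2 (-0.0138 to 0.0693) and Cdk1 (-0.0889 to 0.1637).

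Across group pairs, the deviations of same-numbered libraries correlated at -0.126 to 0.179 over 15 pairs. Between the subsets under the same treatment they correlated at -0.103 (vehicle), -0.0117 (MS-275) and -0.126 (CXD101). With 2 libraries per group and different cells, these values cannot decide whether M-MDSC and PMN-MDSC libraries came from the same mice. The sources used here do not give this either, and the main fits treated the libraries as separate. A block on the replicate number left each count of members as it was, with 17 lower and 1 higher for MS-275 and 1 lower and 1 higher for CXD101 in M-MDSCs.

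The deposited FPKM rest on an estimated 32.8 reads at least behind a member, and counts could not be tested.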
